A study of Arabidopsis thaliana with 12 samples.

Results

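The root triterpene cluster genes of Arabidopsis thaliana are 10 of the 33557 genes listed in the deposited tables. They comprise 4 genes of the thalianol cluster, 3 of the marneral cluster and 3 of the arabidiol and baruol cluster. They were picked by gene code, for lower values in the line 6-6 than in wild type (WT), so their levels in 6-6 relative to WT are given below as a description with no test. RNA was sequenced from the terminal 1 cm of roots of 8-day-old seedlings, raised at 22 °C in a cycle of 16 h light and 8 h dark and then kept for 24 h on fresh medium. The 12 samples form 4 groups of 3, which are WT and 6-6 on 1/2 MS (a standard plant medium, here "MS") and WT and 6-6 on the same medium with NaCl. The sources used here give neither the NaCl concentration nor the nature of 6-6, and the series title concerns ITPK4, an inositol phosphate kinase gene. The labels leave unstated whether the samples within a group are separate cultures and whether 6-6 is 1 clone or allele.

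The authors deposited 1 level for each group in FPKM (read fragments relative to transcript length and to the size of the library), with the 3 samples already combined, so levels can be compared between genes but have no error here and the depth is unknown. On MS, ITPK4 had 24.9 FPKM in WT against 2.95 FPKM in 6-6, and on NaCl 27.7 against 2.75 FPKM. The level of ITPK4 thus separates the lines, but it cannot check their labels, because the nature of 6-6 is not stated. All 31 marker genes examined were listed above 0 in all 4 groups, including those of root hair, endodermis, stele, root cap and meristem. The 6 markers of green tissue also had levels above 0, with a summed level of 122 FPKM in WT on MS, 279 FPKM in WT on NaCl, 98.7 FPKM in 6-6 on MS and 203 FPKM in 6-6 on NaCl.

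Triterpenes are made from 2,3-oxidosqualene, the same precursor from which plants make sterols. An oxidosqualene cyclase folds the precursor into a scaffold such as thalianol, marneral, arabidiol or baruol, and cytochrome P450 enzymes and acyltransferases then decorate it. In Arabidopsis several of these enzymes are encoded side by side in clusters that are expressed mainly in roots, and products of the thalianol pathway are known to shape the bacteria that live on roots.

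Each cluster occupies a compact stretch of its chromosome. Positions are given in TAIR10 as in the deposited tables. The thalianol cluster covers chr5:19428888-19461689 (32.8 kb) with AT5G47980, a BAHD-type acyltransferase gene of 1 exon, CYP705A5 (AT5G47990, thalian-diol desaturase, 2 exons), CYP708A2 (AT5G48000, thalianol hydroxylase, 9 exons) and THAS1 (AT5G48010, thalianol synthase, 14 exons). No other listed gene lies between its members. The marneral cluster covers chr5:17023646-17058245 (34.6 kb) with CYP705A12 (AT5G42580, 2 exons), CYP71A16 (AT5G42590, marneral oxidase, 4 exons) and MRN1 (AT5G42600, marneral synthase, 14 exons), and ends 2.37 Mb before the thalianol cluster. The third cluster covers chr4:8751387-8779685 (28.3 kb) with CYP705A1 (AT4G15330, which cleaves arabidiol, 2 exons), PEN1 (AT4G15340, arabidiol synthase, 14 exons) and BARS1 (AT4G15370, baruol synthase, 14 exons). Exon counts and coding sequences are those of the RefSeq annotation of TAIR10.1. Each of the 10 genes was alone in its locus in the tables.

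The 4 cyclase genes are close relatives. The coding sequences of PEN1 and BARS1 were identical at 86.2% of aligned bases, those of THAS1 and BARS1 at 85.7% and those of THAS1 and PEN1 at 83.7%. MRN1 was the most distant, at 76.4% identity to THAS1 and to PEN1 and 78.3% to BARS1. The 3 CYP705A genes of the clusters shared between 71.9% and 74.6% with each other, less than the 82.3% that CYP705A5 shared with CYP705A2, a gene that lies inside the chromosome 4 cluster. The sources used here do not say how reads that fit more than 1 of these genes were counted.

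The promoters of 4 genes are shown because their salt responses below bracket those of all members: THAS1, CYP708A2 and CYP705A5 fell together with salt in both lines, and MRN1 rose. Each sequence runs 5′ to 3′ from 250 bases before the start of the gene in RefSeq (TAIR10.1) to 50 bases after it. THAS1 is chr5:19456587-19456886 on the plus strand, CYP708A2 chr5:19447817-19448116 on the minus strand, CYP705A5 chr5:19434508-19434807 on the plus strand and MRN1 chr5:17053203-17053502 on the plus strand. Capitals mark matches, on either strand, to TATAAA (the TATA box), ACGTG (the core of the abscisic acid response element), CACGTG (the G-box, which contains ACGTG) and TTGAC (the core of the W-box).
THAS1: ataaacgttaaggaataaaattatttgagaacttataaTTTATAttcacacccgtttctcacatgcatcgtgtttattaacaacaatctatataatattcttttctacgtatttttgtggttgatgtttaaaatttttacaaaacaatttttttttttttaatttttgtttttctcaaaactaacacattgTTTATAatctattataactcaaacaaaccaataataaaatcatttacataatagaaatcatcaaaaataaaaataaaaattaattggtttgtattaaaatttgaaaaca
CYP708A2: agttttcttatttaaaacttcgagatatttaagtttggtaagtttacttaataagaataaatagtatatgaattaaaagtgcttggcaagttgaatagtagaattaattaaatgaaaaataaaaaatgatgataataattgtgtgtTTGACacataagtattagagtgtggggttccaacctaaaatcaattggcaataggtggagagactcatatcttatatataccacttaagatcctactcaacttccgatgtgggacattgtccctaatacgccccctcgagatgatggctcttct
CYP705A5: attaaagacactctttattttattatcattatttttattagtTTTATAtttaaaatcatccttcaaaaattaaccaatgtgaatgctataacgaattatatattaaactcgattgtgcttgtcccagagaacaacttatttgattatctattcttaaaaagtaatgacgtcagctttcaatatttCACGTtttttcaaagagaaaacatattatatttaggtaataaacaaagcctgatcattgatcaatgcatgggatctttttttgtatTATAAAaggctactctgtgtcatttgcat
MRN1: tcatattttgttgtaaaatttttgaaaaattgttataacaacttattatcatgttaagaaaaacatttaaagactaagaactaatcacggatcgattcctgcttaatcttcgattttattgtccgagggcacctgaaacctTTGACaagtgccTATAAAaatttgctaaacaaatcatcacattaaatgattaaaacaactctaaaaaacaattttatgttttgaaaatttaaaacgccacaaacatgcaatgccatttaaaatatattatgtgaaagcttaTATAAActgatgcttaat

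Among these 4 promoters, THAS1, CYP705A5 and MRN1 each held a pair of TATAAA matches. The THAS1 matches begin 212 and 59 bases before the start, both on the opposite strand. The second match of CYP705A5 and that of MRN1 begin after the start, by 21 and 32 bases. CYP705A5 alone of the 4 held ACGTG, 65 bases before the start. CYP708A2 and MRN1 each held TTGAC, 104 and 109 bases before their starts. Over all 10 members, TATAAA was found in 7 promoters, ACGTG in 4, TTGAC in 3 and CACGTG in 1, that of AT5G47980. The RefSeq annotation marks the 5′ ends of PEN1 and BARS1 as incomplete, so their windows may not lie at the true start. Over all 27443 promoters of the same length, TATAAA was found in 52.1%, ACGTG in 26.7%, TTGAC in 50.5% and CACGTG in 7.68%. A match to these short letters is a description of the window and not a binding site.

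The cyclase and P450 genes of the thalianol cluster stood high among root genes and fell when seedlings met salt. CYP705A5 stood at 173 FPKM in WT on MS, 50.8 FPKM in WT on NaCl, 106 FPKM in 6-6 on MS and 47.2 FPKM in 6-6 on NaCl. THAS1 stood at 162, 62.1, 113 and 57.0 FPKM in the same groups, and CYP708A2 at 118, 43.3, 73.7 and 40.7 FPKM. Both NaCl groups lay below both MS groups for all 3 genes. In WT on MS the level of CYP705A5 was above that of 94.7% of tested genes and that of CYP708A2 above 92.0%.

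In WT, salt lowered CYP705A5 3.41-fold (log2 ratio -1.77), CYP708A2 2.71-fold (-1.44) and THAS1 2.61-fold (-1.38). Each had q = 0.000481703 in the authors' deposited table, the smallest q listed there. It goes with the authors' lowest deposited p-value, 5e-05. That is a floor shared with genes outside the clusters, so it does not rank these genes. In 6-6 the same genes fell less far on the ratio scale, CYP705A5 2.25-fold (-1.17), THAS1 1.99-fold (-0.99) and CYP708A2 1.81-fold (-0.86). Each had q = 0.00044142 in the authors' deposited table for 6-6, again the smallest listed and at the same floor of the p-value. The difference between the lines in this ratio (6-6 minus WT, log2) was 0.60 for CYP705A5, 0.58 for CYP708A2 and 0.39 for THAS1. It was not tested, since no values per sample were used, and it also contains the WT-to-6-6 difference for which the genes were picked.

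The acyltransferase gene AT5G47980, the first gene of the cluster along the chromosome, was lower in level, above 77.3% of tested genes in WT on MS, and had smaller ratios. It stood at 38.3 FPKM in WT on MS, 27.2 FPKM in WT on NaCl, 27.7 FPKM in 6-6 on MS and 22.9 FPKM in 6-6 on NaCl. It fell 1.41-fold with salt in WT (log2 ratio -0.50, q = 0.000481703 in the authors' deposited table). In 6-6 its ratio was -0.27 (q = 0.0820 in the authors' deposited table), which is not a call. Summed over the 4 genes, the thalianol cluster went from 491 FPKM on MS to 183 FPKM on NaCl in WT, and from 321 to 168 FPKM in 6-6. The lines were 171 FPKM apart on MS and 15.8 FPKM apart on NaCl. Here the WT levels came from 1 salt comparison and the 6-6 levels from the other.

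**Figure D1:**
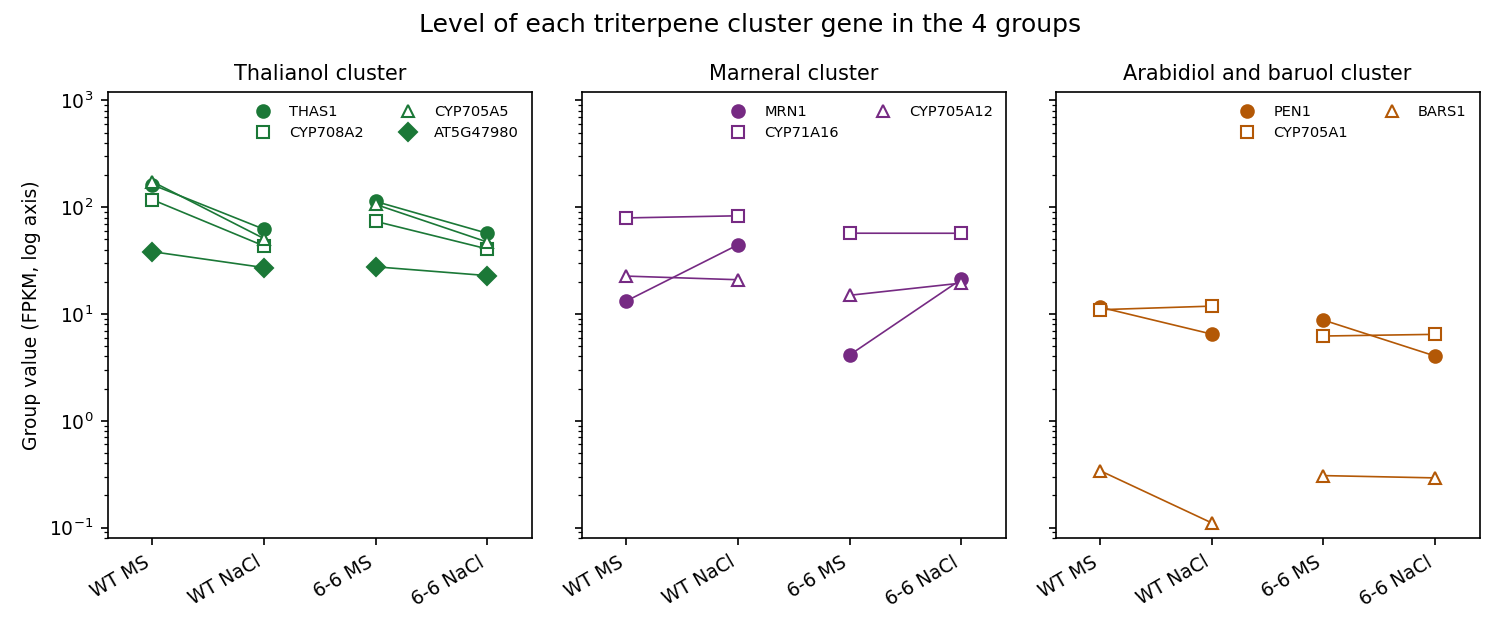
Level of each of the 10 genes (FPKM, log axis) in the 4 groups, 1 panel per cluster, each point the authors' single value for a group of 3 samples. Lines join MS to NaCl within a line of plants. The values of the thalianol genes are lower on NaCl than on MS, MRN1 climbs from 13.2 to 44.5 FPKM in WT and from 4.13 to 21.1 FPKM in 6-6, and BARS1 stays under 1 FPKM.

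The marneral cluster did not move as a block. MRN1, the cyclase gene, rose with salt in both lines while its neighbour CYP71A16 stayed at nearly the same level. MRN1 stood at 13.2 FPKM in WT on MS, 44.5 FPKM in WT on NaCl, 4.13 FPKM in 6-6 on MS and 21.1 FPKM in 6-6 on NaCl. Both NaCl groups lay above both MS groups, the reverse of the thalianol genes. The rise was 3.36-fold in WT (log2 ratio 1.75, q = 0.000481703 in the authors' deposited table) and 5.10-fold in 6-6 (2.35, q = 0.00044142 in the authors' deposited table). The ratio in 6-6 exceeded that in WT by 0.60 on the log2 scale, a difference that was not tested.

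CYP71A16, which oxidises the product of MRN1, stood at 79.4 FPKM in WT on MS, 83.1 FPKM in WT on NaCl, 57.1 FPKM in 6-6 on MS and 57.0 FPKM in 6-6 on NaCl. Its groups divided by line and not by medium. The salt ratio was 0.07 in WT (q = 0.737 in the authors' deposited table) and -0.0018 in 6-6 (q = 0.994 in the authors' deposited table). On MS the P450 gene was therefore listed at a level 6.00-fold that of the cyclase gene in WT and 13.8-fold in 6-6, and on NaCl at 1.87-fold and 2.71-fold. CYP705A12, the third gene, stood at 22.6 FPKM in WT on MS, 20.9 FPKM in WT on NaCl, 15.0 FPKM in 6-6 on MS and 19.5 FPKM in 6-6 on NaCl. It rose with salt in 6-6 (log2 ratio 0.38, q = 0.0118 in the authors' deposited table), a call that is lost at a threshold of 0.01. Its ratio in WT was -0.11 (q = 0.550 in the authors' deposited table).

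In the arabidiol and baruol cluster the cyclase gene again moved apart from the P450 gene beside it. PEN1 stood at 11.6 FPKM in WT on MS, 6.48 FPKM in WT on NaCl, 8.76 FPKM in 6-6 on MS and 4.04 FPKM in 6-6 on NaCl, so that both NaCl groups lay below both MS groups. The product of this gene, arabidiol, is the substrate of CYP705A1. PEN1 fell 1.78-fold with salt in WT (log2 ratio -0.84, q = 0.000481703 in the authors' deposited table) and 2.17-fold in 6-6 (-1.12, q = 0.00044142 in the authors' deposited table). The ratio in 6-6 minus that in WT was -0.28, opposite in sign to the thalianol genes, and was not tested. CYP705A1 stood at 11.0, 11.8, 6.22 and 6.45 FPKM in the same order of groups, again divided by line and not by medium. Its salt ratios were 0.11 in WT (q = 0.594 in the authors' deposited table) and 0.05 in 6-6 (q = 0.864 in the authors' deposited table). BARS1 was listed at 0.340, 0.110, 0.306 and 0.292 FPKM and was not tested by the authors in any table, so it enters no count below.

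**Figure D2:**
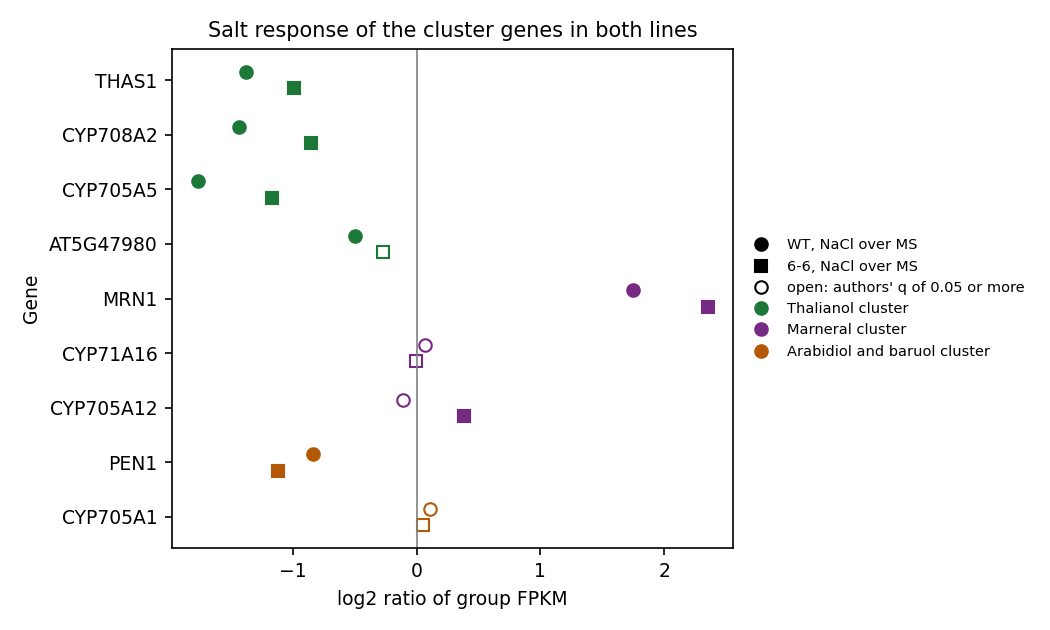
Log2 ratio of NaCl over MS for the 9 tested genes, with circles for WT, squares for 6-6 and open symbols for a q of 0.05 or more in the authors' deposited tables. The ratios run from -1.77 (CYP705A5 in WT) to 2.35 (MRN1 in 6-6), and CYP71A16 and CYP705A1 sit near 0 in both lines.

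In WT, 5 of the 9 tested members fell with salt and 1 rose, at a q below 0.05 in the authors' deposited table. Over all 19798 tested genes, 21.8% were called in WT, 10.5% lower and 11.3% higher. In 6-6, 4 of 9 members fell and 2 rose, where 24.1% of 19705 tested genes were called, 10.4% lower and 13.7% higher. With a threshold of 0.01, 5 members fell and 1 rose in WT (7.37% lower and 7.96% higher over all tested genes), and 4 fell and 1 rose in 6-6 (7.31% and 9.98%). With the authors' test statistic read as a normal deviate, 4 fell and 1 rose in each line, where 3.72% were lower and 4.73% higher in WT and 4.1% and 6.01% in 6-6. The median log2 ratio of the members was -0.50 in WT and -0.27 in 6-6, against 0.01 and 0.03 over all tested genes. The MS groups that enter these comparisons also entered the choice of members, so the salt counts are not independent of that choice. In whole root tips, fewer cells of a type and less RNA per cell cannot be told apart. Of the 8 endodermis markers, 3 fell and 2 rose in WT with salt and 5 fell in 6-6, with a summed level of 883 FPKM in WT on MS, 767 FPKM in WT on NaCl, 869 FPKM in 6-6 on MS and 609 FPKM in 6-6 on NaCl. Root hair markers summed to 451, 599, 508 and 733 FPKM in the same groups, 3 of 6 rising in each line, and all 6 green tissue markers rose in WT and 5 in 6-6. The other marker lists were shorter and had fewer calls. Of 4 stele markers 0 were called with salt in either line. Of 3 root cap markers 0 were called in WT and 1 fell in 6-6. Of 4 meristem markers 1 rose and 1 fell in WT, and 1 rose in 6-6. The part of these shifts in the values of the triterpene genes was not tested.

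Levels in 6-6 were compared with WT on each medium in the tables of that comparison, where the level of a member differed by at most 1.02-fold from the level given above. On MS every tested member had a lower level in 6-6, as their choice required. MRN1 stood lowest relative to WT, 3.18-fold lower (log2 ratio -1.67), followed by CYP705A1 at 1.75-fold (-0.81), CYP705A5 at 1.62-fold (-0.70) and CYP708A2 at 1.58-fold (-0.66). The remaining ratios were -0.58 for CYP705A12, -0.51 for THAS1, -0.46 for AT5G47980 and CYP71A16 and -0.39 for PEN1. A q below 0.05 was listed for 8 of the 9, PEN1 being the exception, where 3.02% of 19465 tested genes were called, 1.89% lower, and 67.2% had a ratio below 0. Reading the statistic as a normal deviate gave a count of 2, MRN1 and CYP705A5, where 0.195% were lower. Nothing is read from these counts, because the same contrast chose the genes.

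On NaCl the 9 ratios ran from -1.07 to -0.08, all below 0. MRN1 was 2.09-fold lower in 6-6 (log2 ratio -1.07), CYP705A1 1.82-fold lower (-0.86), PEN1 1.59-fold lower (-0.67) and CYP71A16 1.44-fold lower (-0.53). CYP705A12 had a ratio of -0.09, and the 4 thalianol genes had ratios of -0.24 (AT5G47980), -0.11 (THAS1), -0.09 (CYP705A5) and -0.08 (CYP708A2), where the median over all tested genes was -0.05. A q below 0.05 was listed for the first 4, where 6.71% of 19772 tested genes were called, 3.67% lower. Reading the statistic as a normal deviate gave a count of 2, MRN1 and CYP705A1, where 0.339% were lower. Nothing is read from these counts either, and the change in the ratio between media was not tested. For PEN1, CYP71A16 and CYP705A1 the ratio lay further below 0 on NaCl than on MS, and for the other 6 nearer to 0. The comparisons on the 2 media share their groups with the salt comparisons, so these values restate the same 4 levels per gene.

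**Figure D3:**
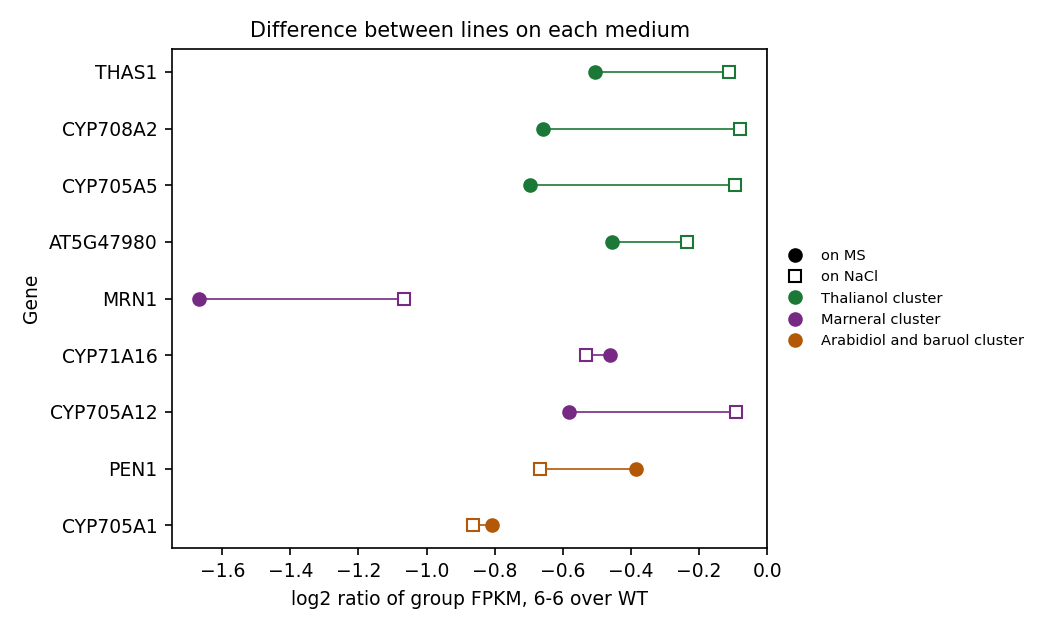
Log2 ratio of 6-6 over WT for the 9 tested genes, with filled circles on MS and open squares on NaCl. The thalianol genes move from between -0.70 and -0.46 on MS to between -0.24 and -0.08 on NaCl, while CYP71A16, CYP705A1 and PEN1 lie lower on NaCl than on MS.

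The order of the 4 groups in the salt tables was shared by 5 members. THAS1, CYP708A2, CYP705A5, AT5G47980 and PEN1 were highest in WT on MS, then in 6-6 on MS, then in WT on NaCl, and lowest in 6-6 on NaCl. For MRN1 the order was WT on NaCl, 6-6 on NaCl, WT on MS and 6-6 on MS. CYP71A16, CYP705A12 and CYP705A1 had both WT groups above both 6-6 groups. Without values per sample, it cannot be said which neighbours in these orders differ beyond the spread between samples. For AT5G47980 the order of 6-6 on MS and WT on NaCl depends on the table, 27.7 and 27.2 FPKM in the salt tables but 27.3 and 27.5 FPKM in the line tables, so that 4 members share the order there.

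The genes around the clusters were taken by position, as the 4 listed genes that lie between members and the 10 on each side of each cluster, 64 in all. In WT, 6 of 45 tested neighbours rose with salt and 5 fell, and in 6-6 7 of 44 rose and 7 fell, by the authors' q, where 21.8% and 24.1% of all tested genes were called. Around the thalianol cluster the nearest genes outside it were not called in either line. The xyloglucan endotransglucosylase gene XTH20, a cell wall gene 23.5 kb from THAS1 between gene centres, moved the other way from the cluster. It stood at 9.25 FPKM in WT on MS, 49.6 FPKM in WT on NaCl, 11.9 FPKM in 6-6 on MS and 103 FPKM in 6-6 on NaCl, a log2 ratio of 2.42 in WT and 3.10 in 6-6. It was also higher in 6-6 than in WT on NaCl (1.06, q = 0.00186177 in the authors' deposited table). Smaller calls in WT were AT5G47920 (0.64), the ribosomal protein gene AT5G47930 (0.32) and AT5G48110 (-0.34), and MET18 was called in 6-6 (-0.34). Around the marneral cluster, AT5G42620 fell in both lines (-0.28 in WT and -0.42 in 6-6) and the dirigent-like gene AT5G42655 in 6-6 (-1.03). The dirigent-like gene AT5G42510 was higher in 6-6 than in WT on NaCl (0.35, q = 0.0246 in the authors' deposited table), a call that is lost at 0.01 and under the statistic. The gene between CYP71A16 and MRN1, AT5G42591, was not tested in any table.

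Outside the ends of the chromosome 4 cluster, 6 of 16 tested flanking genes were called with salt in WT and 9 of 16 in 6-6, against the same 21.8% and 24.1% over all genes. CYP702A5, a P450 gene 48.1 kb from PEN1 between gene centres, had a profile with the group order of MRN1. It stood at 16.8 FPKM in WT on MS, 51.0 FPKM in WT on NaCl, 7.79 FPKM in 6-6 on MS and 38.8 FPKM in 6-6 on NaCl. It rose with salt by 1.60 (log2) in WT and 2.32 in 6-6, and was lower in 6-6 by the authors' q on MS (-1.09, q = 0.0039563 in the authors' deposited table) and on NaCl (-0.38, q = 0.0125 in the authors' deposited table). CYP702A6 rose from 0.252 to 9.38 FPKM in WT and from 0.247 to 9.97 FPKM in 6-6. CYP702A3 rose (1.98 in WT and 1.41 in 6-6), and CYP702A2 (-0.72 and -0.85), the cellulose synthase-like gene ATCSLB05 (-0.65 and -0.81) and the B-box factor gene BBX30 (-0.94 and -1.98) fell.

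The acyltransferase genes AT4G15390 and BIA1, the latter named for inactivating brassinosteroids, lie in the same block. AT4G15390 stood at 334 FPKM in WT on MS, 392 FPKM in WT on NaCl, 222 FPKM in 6-6 on MS and 397 FPKM in 6-6 on NaCl, so that 6-6 on MS was the low group. BIA1 stood at 13.1, 15.7, 7.05 and 14.2 FPKM, with the same low group. In the authors' deposited tables both had q = 0.0039563 for 6-6 against WT on MS and q = 0.00044142 for salt in 6-6, and neither was called for salt in WT. CYP705A4 rose with salt in 6-6 (0.61). Between PEN1 and BARS1, CYP705A3 fell in 6-6 from 1.71 to 0.0975 FPKM (log2 ratio -4.13) and was listed at 1.32 and 0.0226 FPKM in WT without a call. CYP705A2, the nearest relative of CYP705A5, stood at 4.49, 3.68, 4.24 and 4.56 FPKM and had no call in any table, and the pseudogene CYP702A4P was listed at 0 in all 4 groups.

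**Figure D4:**
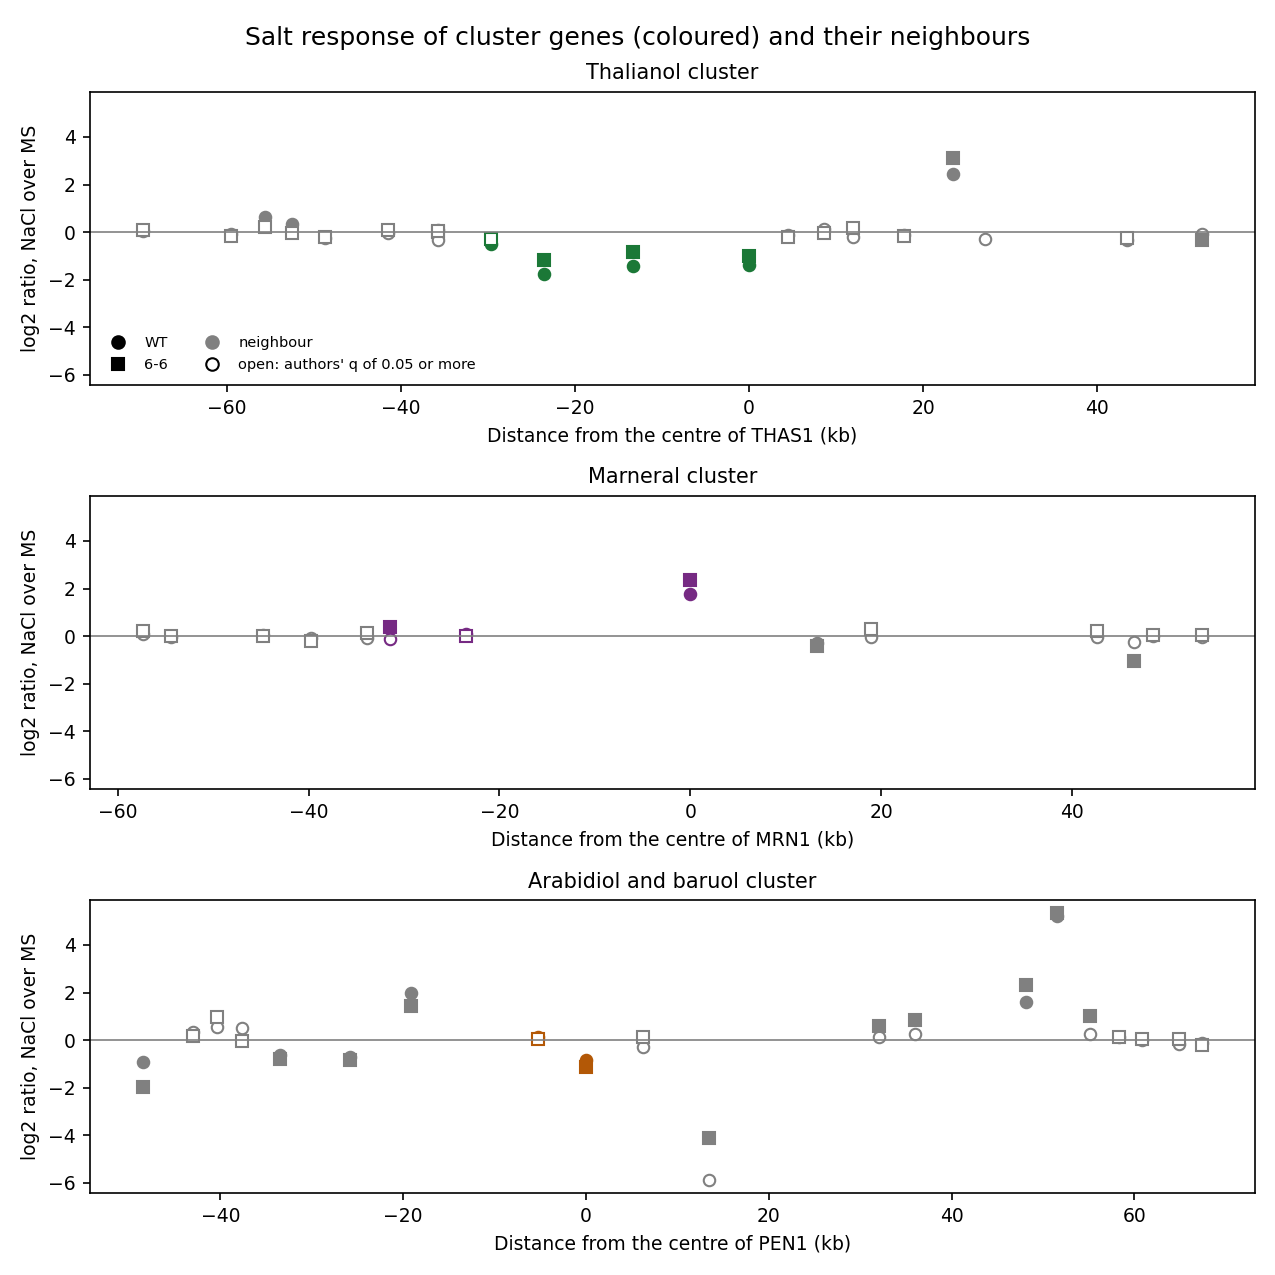
Log2 ratio of NaCl over MS for cluster genes (coloured) and tested neighbours (grey) against the distance in kb from the centre of THAS1, MRN1 or PEN1, with circles for WT, squares for 6-6 and open symbols for a q of 0.05 or more. The 4 thalianol genes lie below 0, the genes next to them were not called (AT5G47970 at -0.32 and AT5G48020 at -0.11 in WT), MRN1 is the single high point of its panel, and CYP702A6 is highest in the third panel at 5.22 in WT and 5.33 in 6-6.

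Genes related to the clusters by pathway, gene family or known role were described from 6 lists of 89 genes. Of 15 tested genes of the thalianol pathway and of other cluster-type genes, 4 rose and 5 fell with salt in WT and 7 rose and 3 fell in 6-6, where 21.8% and 24.1% of all tested genes were called. By the statistic 4 rose and 2 fell in WT, and 6 rose and 3 fell in 6-6. Of the 15, 10 are cluster neighbours already counted above. The other 5 held 1 that rose and 4 that fell in WT, and 1 that rose and 1 that fell in 6-6. SDR4, a dehydrogenase of the thalianol pathway encoded outside the cluster, fell from 527 to 294 FPKM in WT (log2 ratio -0.84) and from 445 to 240 FPKM in 6-6 (-0.89). AT1G66800, a related reductase gene, fell in WT (-0.36), was not called for salt in 6-6, and was lower in 6-6 on MS (-0.41, q = 0.0229 in the authors' deposited table). Between lines on MS the statistic called 1 gene of this list, CYP702A5, where the authors' q called 4. The acyltransferase gene AT5G47950 stood at 39.9, 38.7, 33.9 and 35.9 FPKM and had no call in any table. CYP716A1, a triterpene-oxidising P450 gene of another cluster, rose by 3.56 in WT and 3.49 in 6-6. CYP716A2 (-1.35) and AT5G36130 (-1.82), from the same region, fell in WT.

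Of 6 tested oxidosqualene cyclase genes outside the clusters, 1 rose and 1 fell in WT, and 1 rose and 3 fell in 6-6. Over all tested genes 11.3% were higher and 10.5% lower in WT, and 13.7% and 10.4% in 6-6. By the statistic 1 rose and 0 fell in each line, and 0 were called between lines on either medium. BAS, the beta-amyrin synthase gene, rose from 0.953 to 4.64 FPKM in WT (log2 ratio 2.28) and from 1.00 to 7.30 FPKM in 6-6 (2.86), and was higher in 6-6 than in WT on NaCl (0.67, q = 0.00186177 in the authors' deposited table). CAMS1, the camelliol C synthase gene, fell in both lines (-0.87 in WT) at levels under 1 FPKM. CAS1, the cycloartenol synthase of sterol synthesis, fell in 6-6 (-0.35). LUP1, the lupeol synthase gene, fell with salt in 6-6 (-0.54) and was higher in 6-6 on MS (0.77), but its locus is shared with another gene and its values are uncertain.

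Of 17 tested CYP705A genes outside the clusters, 4 rose with salt in WT, and 3 rose and 1 fell in 6-6. On each medium 3 of the 17 were lower in 6-6 by the authors' q, where 1.89% of all tested genes were lower on MS and 3.67% on NaCl. The statistic called 0 of the 17 on either medium. CYP705A30 was lower on both by the authors' q (-0.57 on MS, q = 0.0039563, and -0.51 on NaCl, q = 0.00186177, in the authors' deposited tables). Of 18 tested genes of the mevalonate pathway and squalene supply, 2 rose and 1 fell in WT and 2 rose and 4 fell in 6-6. That stands against the same 21.8% and 24.1% over all genes. By the statistic 1 rose in WT and 2 rose in 6-6, and 0 fell. SQS2, a squalene synthase gene, rose by 2.02 in WT and 2.47 in 6-6 from levels under 1 FPKM. Of 15 sterol synthesis genes, 4 fell in each line, among them CYP710A1, the C-22 sterol desaturase, by the authors' q (-0.57 in WT and -0.76 in 6-6). Over all tested genes 10.5% were lower in WT and 10.4% in 6-6, and by the statistic 1 of the 15 fell in each line. On MS none of the 17 tested mevalonate and squalene genes and none of the 15 sterol genes was called between the lines in the authors' deposited table. There 3 and 5 had an unadjusted p below 0.05, and the test statistic read as a normal deviate called 0 of each. The ratio was nevertheless below 0 in 6-6 for 16 of the 17 (median -0.13) and for all 15 sterol genes (median -0.19). Over all tested genes 67.2% were below 0 and the median was -0.07. On NaCl, 1 of 18 mevalonate and squalene genes was higher in 6-6 and 4 were lower, and 1 of 15 sterol genes was lower, by the authors' q. An unadjusted p below 0.05 was listed for 10 and 7 of them, and the statistic called 0 of each. On this medium 14 of the 18 and all 15 sterol genes had a ratio below 0, each list with a median of -0.17. Over all tested genes 62.1% were below 0 and the median was -0.05. These shared directions were not tested.

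Chromatin factors known to act on plant gene clusters, such as the H2A.Z histone genes HTA8, HTA9 and HTA11, ARP6, PIE1 and CLF, were not called. None of the 10 tested genes had a q below 0.05 in any of the authors' deposited tables. An unadjusted p below 0.05 was listed for 1 gene in WT with salt, 0 in 6-6 with salt, 1 between lines on MS and 0 on NaCl, and reading the test statistic as a normal deviate gave 0 calls in all 4.

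The genes whose pattern was nearest to the members were found over the 4 log2 ratios, of which 3 are free to vary, as the distance to the median tested member among 14588 genes with a mean of at least 5 FPKM. They were AT2G31585, an RNA of unstated class, at a distance of 0.0926, the GRAS family transcription factor gene AT2G29065 at 0.125, RIC2, a ROP-interacting protein gene, at 0.130, the methyltransferase gene AT4G26220 at 0.131, and the subtilisin-like protease gene ATSBT5.2 at 0.154. The nearest member itself was AT5G47980 at 0.126, and the farthest was MRN1 at 3.71. The next nearest member, CYP71A16, lay at 0.70, farther than all 5 of these genes. The median pattern thus described AT5G47980 and no other member closely. AT2G31585 stood at 55.8, 38.2, 36.3 and 31.4 FPKM in WT on MS, WT on NaCl, 6-6 on MS and 6-6 on NaCl, highest in WT on MS and lowest in 6-6 on NaCl like 5 of the members. Its level in WT on NaCl lay above that in 6-6 on MS, the reverse of the order given above for those 5.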

How the data were processed

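The 10 members, the 6 pathway lists and the marker lists were chosen with earlier results of these data known. RNA sequencing covered 12 samples in 4 groups, grouped by their titles. The submitters' processing notes name HISAT2, HTSeq, edgeR and the build TAIR10, without versions or roles. The 4 deposited tables, 1 per pair of groups, instead have the column layout of Cuffdiff's gene output per the file headers. Each holds 1 FPKM value per group made by the authors from the pooled samples, and the authors' signed test statistic (a score), p-value and q-value. Several members share the lowest deposited p-value, 5e-05, with genes outside the clusters. Depth and sample-to-sample error cannot be had from these values. Because the labels do not describe the origin of the replicates, the p-values could reflect technical spread alone. A header line repeated inside 1 table was dropped.

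A gene was called at a deposited q-value below 0.05. The log2 ratio was taken from the 2 FPKM of 1 table with no pseudocount. Each table was used alone, because the same group differed between tables by median ratios of 0.978 to 1.02. The planned tests on values per sample, which were edgeR, DESeq2, leaving out samples and a replicate block, could not be run. Alternatives were a q-value below 0.01, the statistic read as a normal deviate with Benjamini-Hochberg adjustment, a minimum mean of 1 FPKM, pseudocounts of 1 and 0.1, and centring on the median tested gene. The adjustment and the search for similar patterns were tested on simulated data.

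Named genes were all members, the genes between them, the neighbours and list members past the q-value threshold (at most 8 per list, by smallest p-value), ITPK4, and the 5 genes nearest in pattern. AT5G47950, a thalianol pathway gene with no call, the chromatin genes without a call and AT5G42591 were named for their identity. Of the 89 list genes 88 were in the tables. Promoters and coding sequences came from RefSeq TAIR10.1, whose chromosome lengths hold every position in the tables. Gene ends often differ between the 2 annotations. Of 23939 genes alone in their locus, 18.6% had the same start and end in both, so distances from a start depend on the annotation. Python 3.11.15, pandas 2.3.3, numpy 2.4.6, scipy 1.17.1 and Biopython 1.88 were used.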

Additional observations from a re-analysis of the deposited data

How the results depend on the processing

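No paired analysis was possible because each deposited table holds 1 value per group. Leaving out single samples, edgeR, DESeq2 and other library scalings were not run for the same reason, and the depth is unknown. All 36 log2 ratios of the tested members kept their direction with pseudocounts of 1 and 0.1 and with centring on the median tested gene, and the 40 member levels differed by less than 1.5-fold between tables. The members that fell with salt stayed at 5 in WT and 4 in 6-6 at a q-value below 0.01, and were 4 in both lines when the statistic was read as a normal deviate, where AT5G47980 was not called in WT. The members that rose in 6-6 came to 1 in place of 2 under each of these rules, CYP705A12 being lost. Under the statistic the cause was not tested. The settings for the line comparisons, neighbours and lists were chosen after seeing the data. Members with a q-value below 0.05 between lines were 8 on MS and 4 on NaCl, and 2 on each by the statistic. Neighbours called with salt in WT came to 7 at 0.01 and by the statistic in place of 11. Neighbours called between lines on MS came to 1 under the statistic in place of 3, and on NaCl to 1 at 0.01 and by the statistic in place of 3. With a minimum mean of 1 FPKM and p adjusted again, the neighbour counts moved less. They were 10 in WT and 12 in 6-6 with salt, and 3 between lines on each medium. List genes called in WT with salt came to 14 at 0.01 and 10 by the statistic in place of 22, and in 6-6 to 15 by the statistic in place of 28. Between lines they came to 4 at 0.01 and 1 by the statistic in place of 8 on MS, and to 5 and 0 in place of 13 on NaCl. With the minimum mean of 1 FPKM the list genes called were 20 in WT and 25 in 6-6 with salt. Between lines they were then 8 on MS and 13 on NaCl. Of the 5 genes nearest in pattern, 3 were shared with log2(FPKM + 1) and with a minimum mean of 1 FPKM, and 5 with centring.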
